A study of Mus musculus with 8 samples.

Results

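Interferon-stimulated genes are genes whose transcription rises when a cell senses interferon, and 36 of them were followed here in the mouse median eminence (ME), the floor of the hypothalamus next to the pituitary stalk. The members were taken by gene name. All 36 were found among the 55450 genes of the bulk count table and all 36 were among the 20466 genes with enough reads to be tested. The single-cell table listed 35 of them among 27998 genes, and Mx2 was not listed.

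The bulk data were read counts of 7 Smart-seq2 libraries, each from the dissected ME of a single mouse. Smart-seq2 amplifies full-length cDNA without molecular identifiers, so reads are not independent molecules and counting intervals cover counting error only. The 3 control ME libraries carry the genotype label WT. The 4 tumor ME libraries came from Rax-CreERT2::BrafV600E mice, labelled Rax::BrafV600E mutant, in which tamoxifen given to adults switches on the oncogenic Braf allele in cells that express Rax, chiefly the tanycytes lining the ventricle. The strain label is C57BL/6 and the age label 2 months in every sample. For the bulk mice this label conflicts with the study's methods, which place the dissection 2 months after tamoxifen given to adults. Which age is meant was not settled, so bulk and single-cell mice may differ in age. The methods give the 2 months after tamoxifen for controls and mutants together. Whether the controls carried the Cre is not given in the sources used here. The single-cell library held droplets from the pooled ME of 10 female WT mice, with a unique molecular identifier (UMI) for each captured transcript.

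Type I interferon binds the receptor pair Ifnar1 and Ifnar2 and, through the kinases Jak1 and Tyk2, leads to a complex with Stat2 and Irf9 that binds interferon response elements in promoters. The induced proteins sense viral RNA, block translation or entry of viruses, and feed back on the pathway. In brain such genes are known from microglia, vessels and meninges, and at a lower level from glia.

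Bulk libraries held between 4928456 and 13816596 reads. Between 17874 and 40852 genes had a read, and the range was 17874 to 34942 in controls and 25910 to 40852 in tumors. Genes detected did not rise with reads. Control 3 had the most reads, 13816596, and the fewest genes with a read, 17874. Tumors 3 and 4 had the fewest reads, 5678941 and 4928456, and the most genes, 40852 and 39508. The cause was not tested. Correlation of log2 levels was 0.814 to 0.953 within groups and 0.827 to 0.913 between groups, so libraries of a group were not always closest to each other. Rax stood at 26.8, 41.0 and 143 counts per 1000000 (CPM) in the controls and at 175, 72.5, 33.2 and 48.6 CPM in the tumors. Braf stood at 33.8, 16.8 and 13 CPM in the controls and at 13.9, 25.2, 21.7 and 28.4 CPM in the tumors. Both genes overlapped between the groups, and the mutant allele cannot be read from gene counts.

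Most members were lower in tumor ME, and none of them passed the test across all genes. The log2 fold change (tumor over control) lay below 0 for 30 members and above 0 for 6, with a median of -0.895, while the median over all 20466 genes was 0.126 and 43.3% of them lay below 0. With edgeR's quasi-likelihood test, 0 members and 0 of all genes (0%) had an adjusted p below 0.05. DESeq2 called 5 members and 301 genes, and limma-voom called 0 and 0. At an unadjusted p below 0.05, 16 members (44.4%) were lower in tumor ME, against 3.89% of all genes tested. In the other direction 0 members passed that limit, against 4.23% of all genes. In 7 members (19.4%) every tumor library was below every control library, against 3.18% of all genes, and in 0 members was every tumor library above every control library, against 5.83%. With the number of genes detected as a covariate, only 1 member (2.78%) was lower at an unadjusted p below 0.05, against 2.79% of all genes, and the median was -0.37. Among the 4 libraries with over 30000 genes detected (control 1 against tumors 2, 3 and 4), 11 members (30.6%) were lower, against 5.74% of all genes, and 2 members, Ifi44l and Mx2, had an adjusted p below 0.05. With 1 control left, its spread was taken to be that of the tumors. Both settings were chosen after seeing the data, and the number of genes detected and the genotype cannot be fully told apart in 7 libraries. Each library came from 1 mouse, so p-values measure the spread between these mice and their amplifications together.

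**Figure D1:**
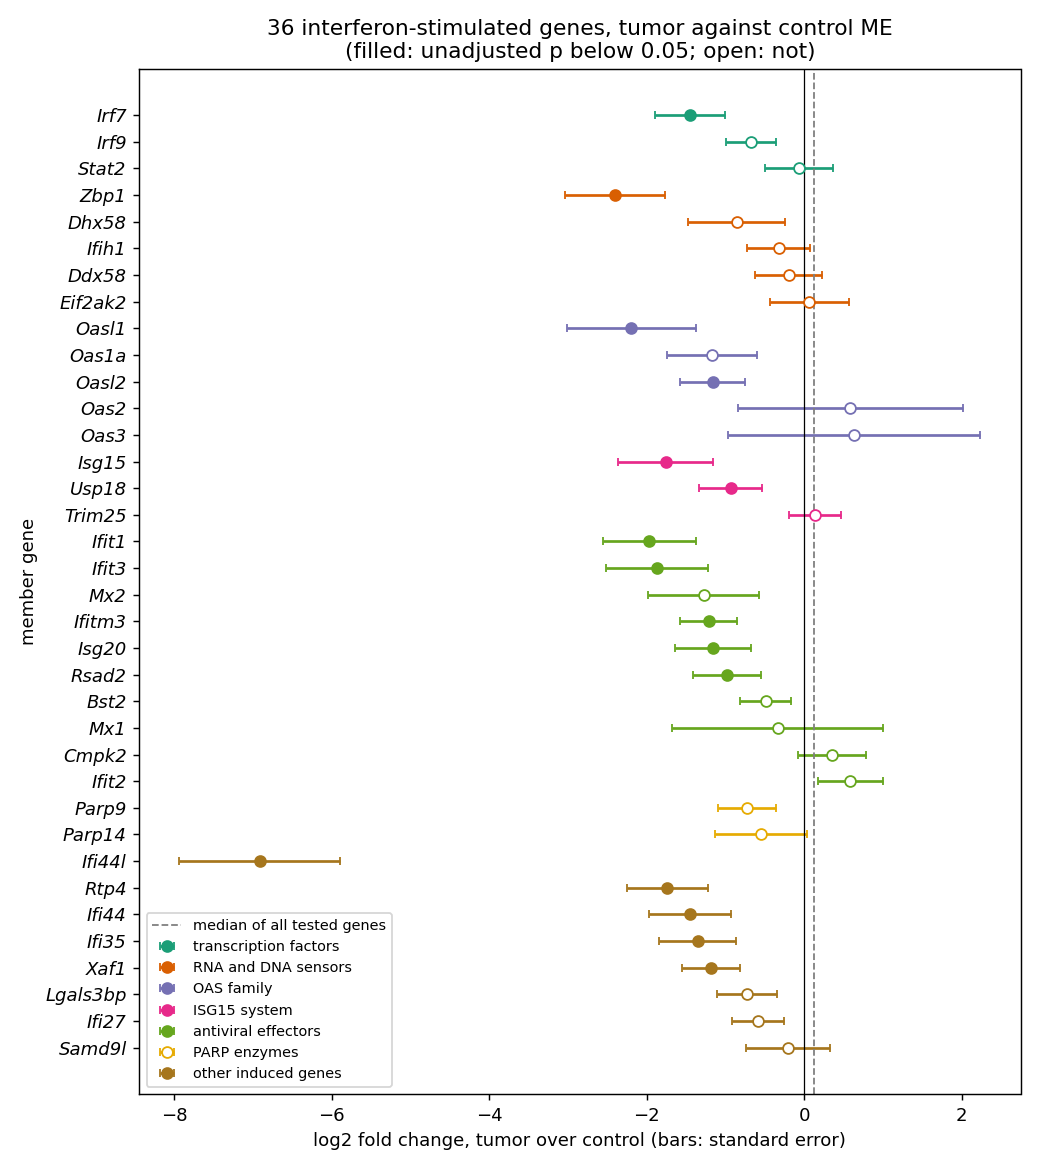
Log2 fold change of tumor over control ME (x axis, with standard errors as bars) for the 36 members (y axis), coloured by role. Filled points have an unadjusted p below 0.05 and all 16 lie left of 0, and the dashed line is the median of all tested genes, 0.126.

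In summed level, the members took 2091, 3242 and 4291 CPM in the 3 controls and 2393, 1088, 1522 and 1455 CPM in the 4 tumors. Tumor 1 therefore lay above control 1, and the groups overlapped. Relative to the control mean, the median member differed by -0.234, -1.54, -0.822 and -0.965 on the log2 scale in tumors 1 to 4, and by -0.475, 0.197 and 0.25 in the controls. Tumor 1 was the highest tumor library for 26 members and tumor 2 was the lowest of all 7 libraries for 20. Control 3 was the highest of all libraries for 16 members. Without tumor 1, 20 members (55.6%) were lower at an unadjusted p below 0.05, against 4.81% of all genes tested. Without control 2, control 3 or tumor 2, 11 (30.6%) were in each case, against 2.91%, 3.05% and 2.09% of all genes. Of the 16 members lower with all libraries, 9 were at that limit without control 3, and Ifi44l, Ifitm3, Irf7, Rtp4, Xaf1 and Zbp1 were the 6 that stayed there whichever library was left out.

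Ifi44l had the largest difference of the members. Ifi44l (ENSMUSG00000039146, chr3:151758737-151762892 of GRCm38, minus strand) is an interferon-induced gene of uncertain function. Its level was 7.01, 17.1 and 15.7 CPM in the controls, and 0, 0.208, 0 and 0.179 CPM in the tumors. All controls were above all tumors, and the reads behind these values were 62, 193 and 183 against 0, 2, 0 and 1. The log2 fold change was -6.91 (SE 1.02), and the adjusted p in edgeR was 0.0777. With reads pooled over mice, the ratio of control to tumor read rates was 143, with a 95% counting interval of 48.7 to 697. That interval treats reads as independent and leaves out the spread between mice and the amplification, so the fold is less certain than it shows. Its adjusted p was 0.0396 and 0.0439 without control 1 or control 3, 0.278 without control 2, and 0.177 to 0.423 with a tumor library left out. It was 6.18e-07 under DESeq2, 0.219 under limma-voom, 0.127 with library sizes alone, 0.45 with the number of genes detected as a covariate and 0.993 with the replicate block. In the single-cell library, which is WT, Ifi44l had only 1 UMI in 990 cells, or 0.102 CPM (95% Poisson interval 0.00257 to 0.566). The 10x chemistry reads 3′ ends and Smart-seq2 whole transcripts, so this level was not compared with the bulk. Its neighbour Ifi44 (chr3:151730922-151749960) was at 19.4, 57.6 and 33.5 CPM in the controls and at 20.3, 4.79, 14.5 and 14.5 CPM in the tumors, so its groups overlapped, with a log2 fold change of -1.45 (SE 0.518). Without control 2 it was not at the unadjusted limit.

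**Figure D2:**
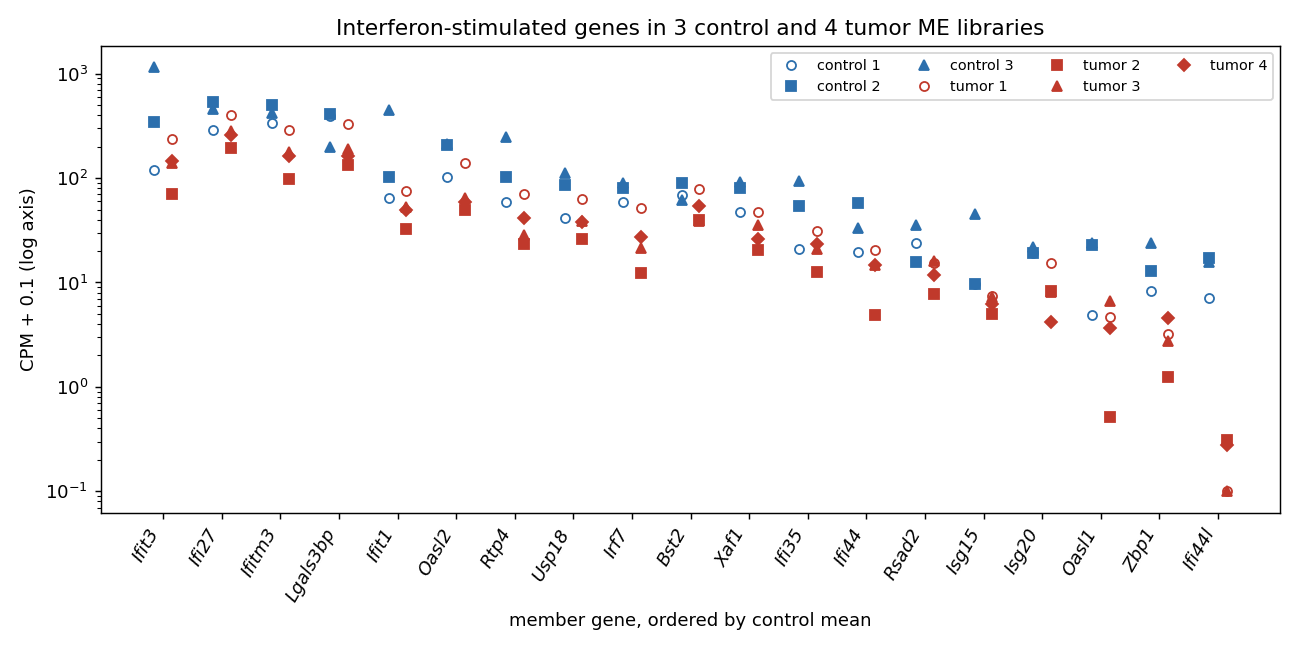
CPM + 0.1 on a log axis for the 19 members described library by library, ordered by control mean, with controls in blue and tumors in red. Control 3 stands apart at the top for Ifit3 and Ifit1, and Ifi44l lies between 0 and 0.208 CPM in the tumor libraries.

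All 3 transcription factors of the list had a log2 fold change below 0. Of them 1 was lower at the unadjusted limit, against 3.89% of all genes. Irf7, which amplifies interferon production, stood at 59.3, 80.3 and 89.8 CPM in the controls and at 51.4, 12.2, 21.4 and 27.0 CPM in the tumors. The groups did not overlap, and the log2 fold change was -1.45 (SE 0.440, adjusted p = 0.44 in edgeR). Irf9, the DNA-binding part of the complex, had a log2 fold change of -0.68 (SE 0.313), and its partner Stat2 had one of -0.06 (SE 0.428). Both overlapped between the groups.

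Among the sensors of foreign nucleic acid, Zbp1 stood out. Zbp1, a sensor of left-handed nucleic acid that can start necroptosis, was at 8.14, 12.9 and 24.04 CPM in the controls and at 3.10, 1.15, 2.67 and 4.47 CPM in the tumors. Every tumor library was below every control library, and the log2 fold change was -2.40 (SE 0.633, adjusted p = 0.411 in edgeR). The RNA helicases Ddx58 (RIG-I), Ifih1 (MDA5) and Dhx58 had log2 fold changes of -0.20, -0.33 and -0.86, and the kinase Eif2ak2 (PKR) had one of 0.06. None of the last 4 was at an unadjusted p below 0.05.

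Active OAS proteins make the short oligoadenylates that activate RNase L, an activity that mouse Oasl2 keeps and Oasl1 lacks. Oasl2 was at 102, 206 and 214 CPM in the controls and at 138, 49.4, 64.6 and 59.2 CPM in the tumors, with tumor 1 above control 1. Its log2 fold change was -1.16 (SE 0.411). Oasl1 was at 4.75, 23.0 and 23.8 CPM against 4.60, 0.417, 6.51 and 3.58 CPM, with a log2 fold change of -2.19 (SE 0.821). Without control 2 neither gene was at the unadjusted limit, nor was Oasl2 without tumor 2 or Oasl1 without tumor 4. Oas1a had a log2 fold change of -1.17 (SE 0.571) and did not pass the unadjusted limit. It shares 57.6% of its 50-base stretches with transcripts of Oas1g and Oas1b, so its reads may be divided among them. Oas2 and Oas3 stood at 5.88 CPM or less in every library, and their standard errors of 1.43 and 1.60 exceeded their log2 fold changes of 0.59 and 0.64.

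Isg15, a ubiquitin-like protein that is attached to other proteins, and Usp18, which removes it and dampens receptor signalling, were both lower at the unadjusted limit. Isg15 was at 9.49, 9.59 and 45.6 CPM in the controls and at 7.39, 4.90, 7.18 and 6.08 CPM in the tumors. The groups did not overlap, and the other controls were close to the tumors. The log2 fold change was -1.75 (SE 0.604), and without control 3 it was -0.57 and not at the limit. Usp18 was at 41.6, 85.8 and 111 CPM in the controls and at 63.4, 26.2, 38.9 and 37.9 CPM in the tumors, with a log2 fold change of -0.93 (SE 0.401) and overlapping groups. Without control 3 that value was -0.60 and not at the limit. Nor was Usp18 at the limit without control 2, tumor 2, tumor 3 or tumor 4. Trim25, a ubiquitin ligase for RIG-I, had a log2 fold change of 0.14 (SE 0.334).

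The antiviral effectors formed the largest group, and 5 of 10 were lower at an unadjusted p below 0.05, against 3.89% of all genes. Ifitm3, a membrane protein that stops virus fusion, had the highest length-scaled level of all members, with a mean of 620 reads per kilobase per 1000000 reads (RPKM) in the controls and 267 RPKM in the tumors. It was at 336, 502 and 423 CPM in the controls and at 288, 98.0, 176 and 162 CPM in the tumors. All tumors were below all controls, and the log2 fold change was -1.21 (SE 0.362, adjusted p = 0.44 in edgeR). Isg20, an RNA exonuclease, was at 19.2, 19.2 and 21.6 CPM in the controls and at 15.3, 8.23, 8.02 and 4.11 CPM in the tumors. The controls were close together and the tumors all below them, with a log2 fold change of -1.16 (SE 0.481). With a library left out, Isg20 stayed at the unadjusted limit only without tumor 1. Rsad2 (viperin), which makes a chain-terminating nucleotide, was at 23.6, 15.5 and 35.6 CPM against 15.2, 7.61, 15.9 and 11.8 CPM. Its log2 fold change was -0.98 (SE 0.432), and tumor 3 at 15.9 CPM lay above control 2. Without control 3 its log2 fold change was -0.63, not at the limit. With a library left out, Rsad2 stayed at the limit only without control 2.

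The 3 Ifit genes lie side by side on chromosome 19 and did not show the same values. Ifit proteins bind viral RNA and hold back its translation. Ifit1 was at 64.0, 103 and 449 CPM in the controls and at 75.5, 32.3, 53.3 and 49.0 CPM in the tumors, with a log2 fold change of -1.97 (SE 0.591). Ifit3 was at 118, 345 and 1154 CPM in the controls and at 236, 70.4, 141 and 144 CPM in the tumors, with a log2 fold change of -1.87 (SE 0.645). In both genes control 3 was far above the rest and control 1 was within the tumor range. Without control 3 the log2 fold change was -0.65 for Ifit1 and -0.63 for Ifit3, and neither was at the unadjusted limit. Ifit3 shares 51.2% of its 50-base stretches with Ifit3b, so its count may hold reads of either. Ifit2 was at 12.8, 26.8 and 29.6 CPM in the controls and at 51.9, 35.4, 25.2 and 26.1 CPM in the tumors, with a log2 fold change of 0.59 (SE 0.409). The difference between the Ifit genes was not tested. The neighbours Rsad2 and Cmpk2, a nucleotide kinase next to it on chromosome 12, were likewise apart in value, with a log2 fold change of 0.35 (SE 0.428) for Cmpk2. Bst2 (tetherin), which holds budding virus at the membrane, was at 69.4, 88.8 and 62.1 CPM against 77.8, 39.2, 38.4 and 53.6 CPM, with a log2 fold change of -0.49 (SE 0.328). Mx1 and Mx2 belong to a family of dynamin-like antiviral proteins, and Mx2 is annotated as a polymorphic pseudogene. Their log2 fold changes were -0.33 and -1.27, at 22.03 CPM or less in every library. Mx2 was at 22.03 CPM in control 1, the only control with over 30000 genes detected. In controls 2 and 3 it was at 5.69 and 6.33 CPM, within the tumor range of 1.98 to 7.99 CPM.

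Of the 8 members with other or uncertain roles, 5 were lower at the unadjusted limit, against 3.89% of all genes. Ifi44l and Ifi44 were among these 5. Rtp4, a chaperone of taste and opioid receptors that also blocks viral replication, was at 58.3, 101 and 247 CPM in the controls and at 69.5, 23.0, 28.2 and 41.6 CPM in the tumors. Its log2 fold change was -1.74 (SE 0.517), with tumor 1 above control 1, and -0.95 without control 3, still at the limit. Xaf1, which antagonises an inhibitor of apoptosis, was at 47.6, 79.9 and 91.6 CPM against 47.3, 20.2, 35.7 and 25.9 CPM. Its groups touched without overlapping, and the log2 fold change was -1.18 (SE 0.368). Ifi35 was at 20.8, 54.4 and 92.8 CPM against 31.3, 12.4, 20.7 and 23.4 CPM, with a log2 fold change of -1.35 (SE 0.486). Without control 3 that change was -0.76, and Ifi35 was not at the limit then or without tumor 2. On 16.8% of its exonic length it overlaps the antisense gene Gm11626, and whether counting used strand is not given in the sources used here.

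Ifi27 and Lgals3bp were among the 5 members of highest length-scaled level, with control means of 290 and 118 RPKM, and were not past the unadjusted limit. Ifi27, a mitochondrial protein, was at 288, 531 and 458 CPM in the controls and at 399, 192, 280 and 260 CPM in the tumors. Lgals3bp, a secreted galectin-binding glycoprotein, was at 396, 412 and 197 CPM against 327, 133, 191 and 164 CPM. Both overlapped between the groups, with log2 fold changes of -0.59 (SE 0.331) and -0.72 (SE 0.381). The 20 members not past the limit ranged from -1.27 to 0.64, and included Parp9 and Parp14, ADP-ribosyltransferases of the pathway, at -0.73 and -0.55, and the growth regulator Samd9l at -0.20.

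Promoter letters show what some of the members share beside their induction. Windows of 250 bases before the start were matched for 26 of the 36 members in RefSeq sequence of build GRCm38.p6. The letters GAAANNGAAA, on either strand, are the core of the interferon-stimulated response element and were found before the start in 8 of the 26 (30.8%) and in 2.98% of all 32851 windows. Counted by window, 8 of the 30 windows of these members (26.7%) held it. Those 8 were Ifit1, Ifit3, Isg15, Oas1a, Oas3, Bst2, Rsad2 and Stat2. Of the 5 with more than 1 match, 4 (Bst2 left out) are shown over the 160 bases before the RefSeq start, 5′ to 3′ on the strand of the gene, with the matching letters in capitals.
Ifit1, plus strand, chr19:34640729-34640888: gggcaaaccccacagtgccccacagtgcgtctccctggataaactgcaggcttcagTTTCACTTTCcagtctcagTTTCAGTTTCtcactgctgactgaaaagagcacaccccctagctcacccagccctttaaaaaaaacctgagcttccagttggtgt
Ifit3, plus strand, chr19:34583369-34583528: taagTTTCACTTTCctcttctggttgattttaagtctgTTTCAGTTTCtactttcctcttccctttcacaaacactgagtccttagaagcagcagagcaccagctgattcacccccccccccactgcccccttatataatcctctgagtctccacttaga
Isg15, minus strand, chr4:156200819-156200978: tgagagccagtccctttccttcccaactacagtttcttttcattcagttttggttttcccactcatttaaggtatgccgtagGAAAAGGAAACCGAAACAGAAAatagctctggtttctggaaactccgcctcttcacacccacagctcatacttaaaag
Oas1a, minus strand, chr5:120907526-120907685: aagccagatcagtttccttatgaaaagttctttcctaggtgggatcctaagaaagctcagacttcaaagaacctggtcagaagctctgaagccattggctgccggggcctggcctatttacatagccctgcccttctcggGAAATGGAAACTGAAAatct

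In Isg15 the capitals hold 3 overlapping matches that begin 78, 72 and 66 bases before the start, and in Oas1a 2 overlapping matches begin 20 and 14 bases before it. In Ifit1 the 2 separate matches begin 104 and 85 bases before the start, and in Ifit3 they begin 156 and 122 bases before it, all on the opposite strand. Of the 16 members lower at the unadjusted limit, Ifit1, Ifit3, Isg15 and Rsad2 were among those with a match. Ifi44l, Ifi44, Irf7, Xaf1, Oasl1, Oasl2, Ifi35, Isg20 and Ifitm3 had none before the start, and Ifit2 had none either. No match says only that these letters are not in this window. Matches that ran past the start or lay in the 50 bases after it were not counted above. Ifitm3 had 2 of these, and Ifih1, Ddx58 and Eif2ak2 had 1 each. Their share over all windows was not counted. Rtp4, Zbp1 and Usp18 were among the 10 members without a window.

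The other genes of the interferon pathway were counted in 6 fixed lists. Of these 55 genes 44 were tested, 0 passed the adjusted limit in edgeR, 8 (18.2%) were lower at an unadjusted p below 0.05, against 3.89% of all genes, 0 were higher, and the median log2 fold change was -0.337. DESeq2 called 2 of them, Ptpn6 and Il10rb, and limma-voom called 0. The 10 interferon ligands took at most 3.34 CPM together in any library and none was tested.

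Of the receptors, Ifnar1 was at 50.5, 55.0 and 31.5 CPM in the controls and at 74.6, 73.0, 50.6 and 43.1 CPM in the tumors, with a log2 fold change of 0.40 (SE 0.331). Ifnar2, Ifngr1 and Ifngr2 had log2 fold changes of -0.23, -0.36 and -0.18, and all overlapped between the groups. Il10rb, a chain shared by the lambda interferon and IL-10 receptors, was at 60.1, 90.8 and 93.0 CPM against 48.0, 31.5, 28.6 and 23.95 CPM. Its groups were apart, with a log2 fold change of -1.30 (SE 0.326, adjusted p = 0.37 in edgeR). Ifnlr1, its partner in the lambda receptor, was at 9.04, 7.37 and 11.8 CPM against 1.199, 5.11, 2.67 and 1.25 CPM, with a log2 fold change of -1.87 (SE 0.713). The other pathway genes at the unadjusted limit were Irf3 at -0.92, Irf8 at -1.33, the phosphatase Ptpn6 at -1.73 and the gamma-response GTPases Igtp, Irgm1 and Iigp1 at -1.46, -1.12 and -1.88. Groups were apart in Ptpn6 only among these 6. In Igtp, Irgm1 and Iigp1, control 3 was the highest library, at 343, 214 and 96.2 CPM. Control 1 was at 52.3, 44.8 and 9.49 CPM. The tumors were at 40.0 to 100, 46.5 to 68.3 and 6.88 to 13.6 CPM, so control 1 lay within or below their range.

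In bulk tissue, fewer cells of a type and less RNA per cell cannot be told apart, so marker lists of cell types are given beside the members. Macrophage or microglia markers summed to 1130 to 3560 CPM in the controls and to 686 to 1670 CPM in the tumors, with 3 of 10 lower and 0 higher at the unadjusted limit and a median log2 fold change of -0.904. Markers of vascular and leptomeningeal cells (VLMCs) summed to 1210 to 2950 CPM against 383 to 810 CPM, with 4 of 6 tested lower. Endothelial markers summed to 284 to 493 CPM against 88.4 to 166 CPM, with 3 of 8 lower. The last 2 sums did not overlap between the groups, unlike the sum of the members. NK or T cell markers summed to 22.6 to 57.6 CPM against 21.5 to 63.1 CPM, with a median log2 fold change of -0.01. Of 7 tested, 1 was lower (Nkg7, log2 fold change -1.92) and 1 higher (Trbc2, 2.22). Neutrophil markers summed to 25.0 to 202 CPM against 6.04 to 20.9 CPM, with 2 of 4 tested lower. In these 5 lists 0 markers were at 0 in every library. Oligodendrocyte markers summed to 5970 to 18800 CPM against 3730 to 7360 CPM, with 7 of 8 lower and a median log2 fold change of -1.29. Markers of oligodendrocyte precursors (OPCs) summed to 87.1 to 138 CPM against 242 to 850 CPM, with 6 of 7 higher and a median of 2.74. Tanycyte markers summed to 761 to 1130 CPM against 830 to 1300 CPM, with 2 lower and 4 higher of 9 tested. Astrocyte markers were higher in 4 of 7 and a neuron marker in 1 of 7. Markers of endocrine cells were lower in 3 of 8 for the pars tuberalis and 3 of 4 tested for the rest of the pituitary. Their sums overlapped between the groups, at 2530 to 13300 CPM against 834 to 4230 CPM and at 706 to 15300 CPM against 971 to 20200 CPM. Control 1 was the highest library for all 3 lower ones of the rest of the pituitary. Prl, for example, was at 3969 CPM there and at 0.622 and 1.54 CPM in the other controls. Pomc had a log2 fold change of 1.795 and was not at the limit. In the ependymal, mural, B cell, mast cell, dendritic cell or monocyte, and erythrocyte lists, 0 markers were at the unadjusted limit. Of all genes tested, 3.89% were lower and 4.23% higher at the unadjusted limit. No list had a marker with an adjusted p below 0.05 in edgeR. The part of these cells in the levels of the members was not tested.

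**Figure D3:**
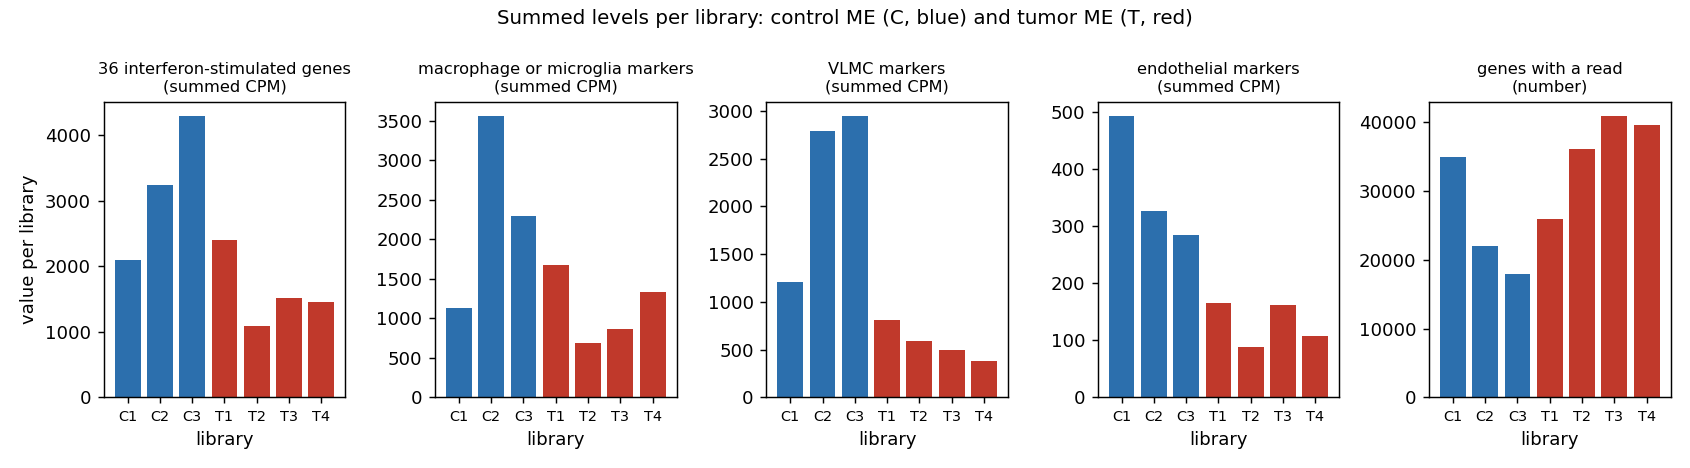
Bars from 0 give, for each library (controls C1 to C3, tumors T1 to T4), the summed CPM of the members and of 3 marker lists and the number of genes with a read. Controls 2 and 3 have the highest member, macrophage and VLMC sums and the fewest genes detected, both VLMC and endothelial sums are lower in every tumor library, and control 1 sits near tumor 1 in the member sum.

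The single-cell library shows which WT cells carried each gene. It held 990 cells and 9846289 UMIs, with 3284 to 57119 UMIs per cell and a median of 7832. Members took 23355 of these UMIs, or 0.237%. Cells were clustered without the members and pathway genes, and a cluster was named from at least 3 markers at 3 times the CPM of the other cells. With 1 library of pooled mice there is no replicate, so no test was run and intervals cover counting error only. The names held against their lists with limits, as several clusters also met the rule for other lists. The ependymal-like cluster carried 5 of 7 ependymal, 5 of 10 tanycyte and 4 of 7 astrocyte markers at that level. Tanycyte-like cluster 2 carried 4 of 7 astrocyte markers. Macrophage- or microglia-like cells carried 3 of 4 B cell and 3 of 4 mast cell markers, and NK- or T-cell-like cells 4 of 6 of dendritic cells or monocytes. Cells called VLMC-like (clusters 1 and 7) also carried 6 and 8 of 8 endothelial markers and 4 and 5 of 8 mural markers at that level. Only 7 of 180 such cells had UMIs of 3 or more of the endothelial markers, so vessel cells may be mixed in. In the median cell that was not erythrocyte-like, haemoglobin made up 0.362% of UMIs, a sign of free RNA, and erythrocyte-like cells (median 7747 UMIs) therefore serve as the level expected from it for genes that red cells lack.

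In summed CPM the members were highest in VLMC-like cells, at 5350 CPM (95% Poisson interval 5220 to 5480, 180 cells). Macrophage- or microglia-like cells followed with 4240 CPM (4080 to 4400, 81 cells) and the 2 tanycyte-like clusters with 4120 CPM (3970 to 4270) and 3790 CPM (3670 to 3910). These tanycyte-like clusters hold 104 and 76 cells and are neighbours whose intervals do not overlap, whereas the macrophage- or microglia-like interval overlaps that of the first. Ependymal-like cells stood at 2940 CPM, NK- or T-cell-like cells at 2250 CPM, oligodendrocyte-like cells at 1990 CPM, OPC-like cells at 1760 CPM and PTC-like cells (endocrine cells of the pars tuberalis) at 1750 CPM. Erythrocyte-like and neuron-like cells were lowest at 421 CPM (393 to 449) and 326 CPM (296 to 358), although neuron-like cells had the most UMIs, with a median of 31422. The 24 cells described further on were then left out, a setting chosen after seeing the data. VLMC-like cells then stood at 4570 CPM and the tanycyte-like clusters at 4120 and 3400 CPM. Macrophage- or microglia-like cells stood at 2750 CPM (2630 to 2880), so in the sum this class fell below both clusters. Of these sums, Ifi27 alone took 1560 and 1200 CPM in the tanycyte-like clusters and 162 CPM in macrophage- or microglia-like cells. Ifitm3 took 1890 CPM in VLMC-like cells. Of the 23355 member UMIs in all cells, Ifitm3 held 4977 and Ifi27 held 4879. The order of the classes without these genes was not computed. Cells thinned to 1000 UMIs gave a mean of 3.26 members detected per VLMC-like cell, 2.88 per macrophage- or microglia-like cell and 0.347 per neuron-like cell.

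Of the 33 members with at least 20 UMIs, 16 were highest in macrophage- or microglia-like cells, 7 in VLMC-like cells, 5 in the tanycyte-like clusters, 4 in NK- or T-cell-like cells and 1 in erythrocyte-like cells. For 9 of the 16, 3 of the 7, 1 of the 5, 1 of the 4 and the last, the interval lay apart from that of the next class. Without the 24 cells, 8 of the 16 were still highest in macrophage- or microglia-like cells, and Lgals3bp alone of them lay apart from the next class, while 6 of the 7 were still highest in VLMC-like cells, 2 of them apart (Ifit1 and Ifitm3). Oas2 (16 UMIs) and Ifi44l were too sparse to place.

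**Figure D4:**
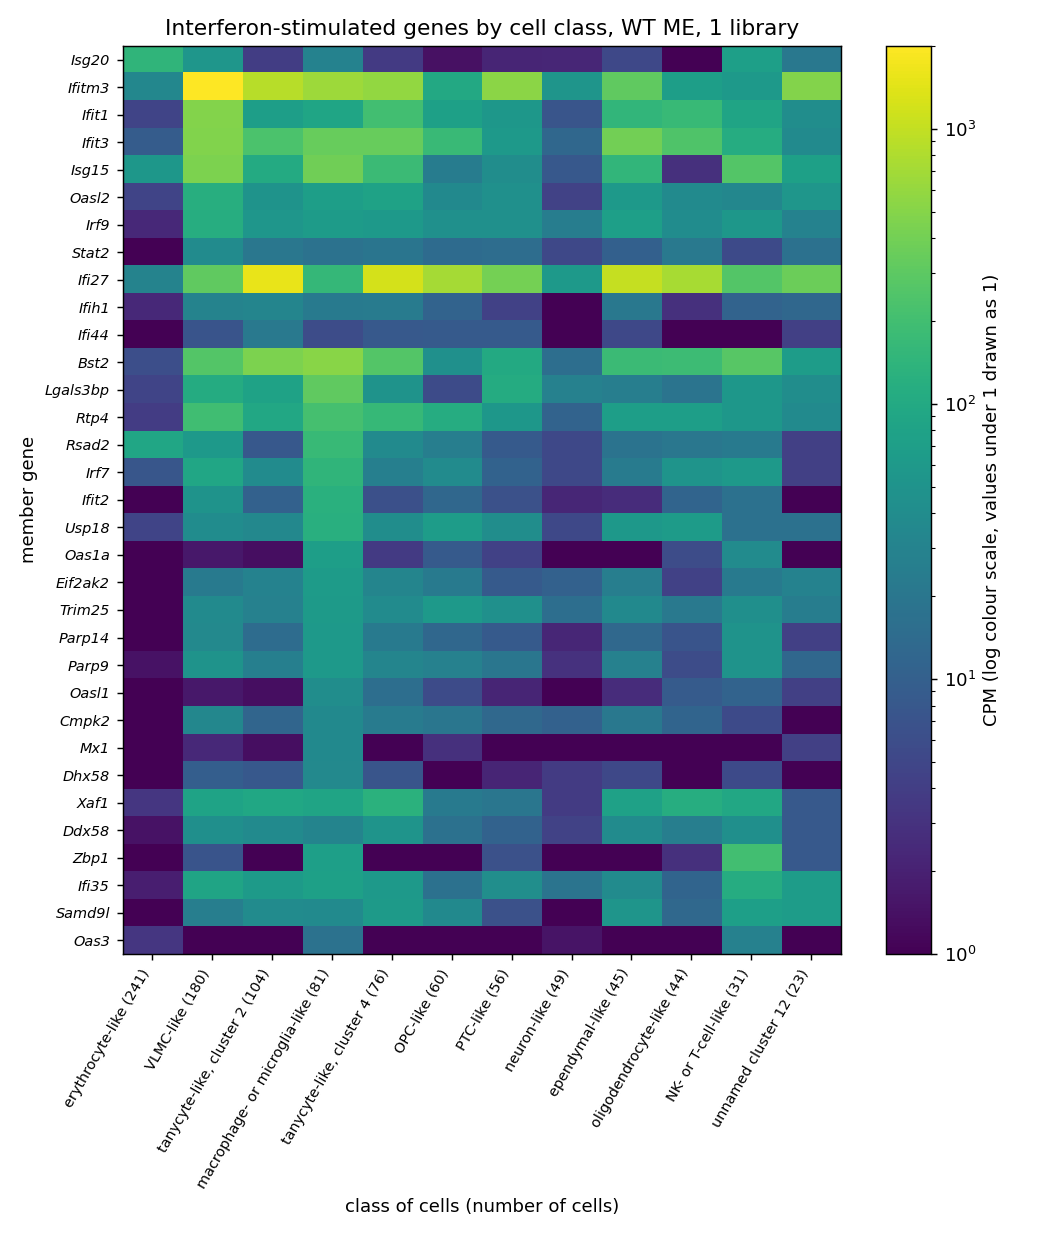
CPM on a log colour scale for the 33 members with at least 20 UMIs (rows) in 12 classes of cells (columns, with the number of cells). Erythrocyte-like and neuron-like columns are dark for most genes, Ifitm3 and Ifi27 are the brightest rows, and Zbp1 is brightest in NK- or T-cell-like cells (201 CPM).

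VLMC-like cells had the highest level of Ifitm3, Ifit1, Ifit3 and Isg15, and for Ifit3 and Isg15 the interval overlapped that of the next class. Ifitm3 was at 2000 CPM there (1920 to 2080) against 892 CPM in the next class, tanycyte-like cluster 2, and was found in 100% of VLMC-like and 23.2% of erythrocyte-like cells. Ifit1 was at 495 CPM (456 to 535) against 198 CPM in tanycyte-like cluster 4, with a UMI in 48.9% of VLMC-like and 4.15% of erythrocyte-like cells. Ifit3 was at 478 CPM (440 to 518) and reached 395 CPM (335 to 463) in ependymal-like cells. Without the 24 cells described further on, it was at 274 CPM in VLMC-like cells and at 279 CPM in tanycyte-like cluster 4, with overlapping intervals. In cells thinned to 1000 UMIs it was detected in 25.6% of VLMC-like, 26.3% of cluster 4, 28.9% of ependymal-like and 16.3% of cluster 2 cells. Isg15 was at 448 CPM (411 to 487) in VLMC-like and at 385 CPM (339 to 434) in macrophage- or microglia-like cells, and these intervals overlapped. Oasl2 and Irf9 were highest in VLMC-like cells too, at 116 and 115 CPM.

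Macrophage- or microglia-like cells were highest in Lgals3bp, Oas1a, Dhx58, Eif2ak2, Irf7, Usp18 and Ifit2. Lgals3bp was at 315 CPM (275 to 361) against 108 CPM in VLMC-like cells. Oas1a was at 70.8 CPM with a UMI in 33.3% of the cells, against 12.9% of NK- or T-cell-like and 0.415% of erythrocyte-like cells, and its interval overlapped that of NK- or T-cell-like cells (39.1 CPM). Dhx58 was at 35.4 CPM, Eif2ak2 at 64.9 CPM, Irf7 at 146 CPM, Usp18 at 121 CPM and Ifit2 at 125 CPM, each with an interval above that of the next class. Without the 24 cells, 3 of which are of this class, these 5 intervals overlapped the next class, with Irf7 at 81.7 CPM, Usp18 at 62.9 CPM and Ifit2 at 34.6 CPM, below 43.4 CPM for Ifit2 in VLMC-like cells. Bst2 was at 516 CPM there and at 447 CPM in tanycyte-like cluster 2, with intervals that overlapped. Rtp4 was at 211 CPM against 196 CPM in VLMC-like cells, which likewise did not differ beyond counting error.

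Tanycyte-like cells, the cells in which the oncogene is switched on in the tumor mice, led in Ifi27. Cluster 2 stood at 1560 CPM (1480 to 1660) and cluster 4 at 1230 CPM (1170 to 1300), with a UMI in 100% of the cells of both, against 159 CPM in macrophage- or microglia-like cells and 22.4% of erythrocyte-like cells with a UMI. Ependymal-like cells were near these levels at 1040 CPM. Xaf1 was highest in cluster 4 at 130 CPM (110 to 154), close to 115 CPM in oligodendrocyte-like cells.

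Zbp1 stood at 201 CPM (141 to 279) in NK- or T-cell-like cells and at 73.7 CPM (54.7 to 97.2) in macrophage- or microglia-like cells. In tanycyte-like, OPC-like, neuron-like and ependymal-like cells it had 0 UMIs. A count of 0 in tanycyte-like cluster 2 allows up to 4.02 CPM and in cluster 4 up to 2.75 CPM. Mx1 was at 36.9 CPM in macrophage- or microglia-like cells and at 4.20 CPM or less in every other class.

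Erythrocyte-like cells, low in most members, carried Isg20 and Rsad2. Isg20 was at 146 CPM there (130 to 163), with a UMI in 58.1% of 241 cells, against 72.7 CPM in NK- or T-cell-like cells and 54.0 CPM in VLMC-like cells. Rsad2 was at 89.6 CPM (77.2 to 103) with a UMI in 24.5% of the cells, below 167 CPM in macrophage- or microglia-like and above 58.8 CPM in VLMC-like cells. Without the cell of most UMIs, Rsad2 was at 76.4 CPM in macrophage- or microglia-like cells and at 82.0 CPM in erythrocyte-like cells, so the order of these 2 classes rested on that cell. Without the 24 cells described further on, Rsad2 was at 25.2 CPM (14.4 to 40.8) in macrophage- or microglia-like cells. Erythrocyte-like cells were then highest at 82.3 CPM (70.4 to 95.6), apart from VLMC-like cells, the next class, at 34.7 CPM (24.8 to 47.3). In the bulk libraries the erythrocyte markers summed to 5650 to 9640 CPM in the controls and to 1390 to 13200 CPM in the tumors.

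A few cells held a large part of the most inducible members. Only 24 of 990 cells had 20 or more UMIs of Ifit1, Ifit3 or Isg15, and they held 43.3% of all UMIs of these 3 genes. They were spread over 7 classes, with 12 VLMC-like, 3 macrophage- or microglia-like, 3 of tanycyte-like cluster 4, 2 OPC-like, 2 oligodendrocyte-like, 1 ependymal-like and 1 erythrocyte-like cell. In oligodendrocyte-like cells 2 of 44 cells held 93.4% of the UMIs, and in macrophage- or microglia-like cells 3 of 81 held 73.4%. In VLMC-like cells 12 of 180 held 38.2%, in tanycyte-like cluster 4 3 of 76 held 35.7%, and cluster 2 had 0 such cells among 104. The richest cell, of tanycyte-like cluster 4, had 84 UMIs of Ifit1, 48 of Ifit3 and 67 of Isg15 among 14553. An oligodendrocyte-like cell had 80 of Ifit1 and 106 of Ifit3 but 0 of Isg15, and an ependymal-like cell had 46, 78 and 45.

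**Figure D5:**
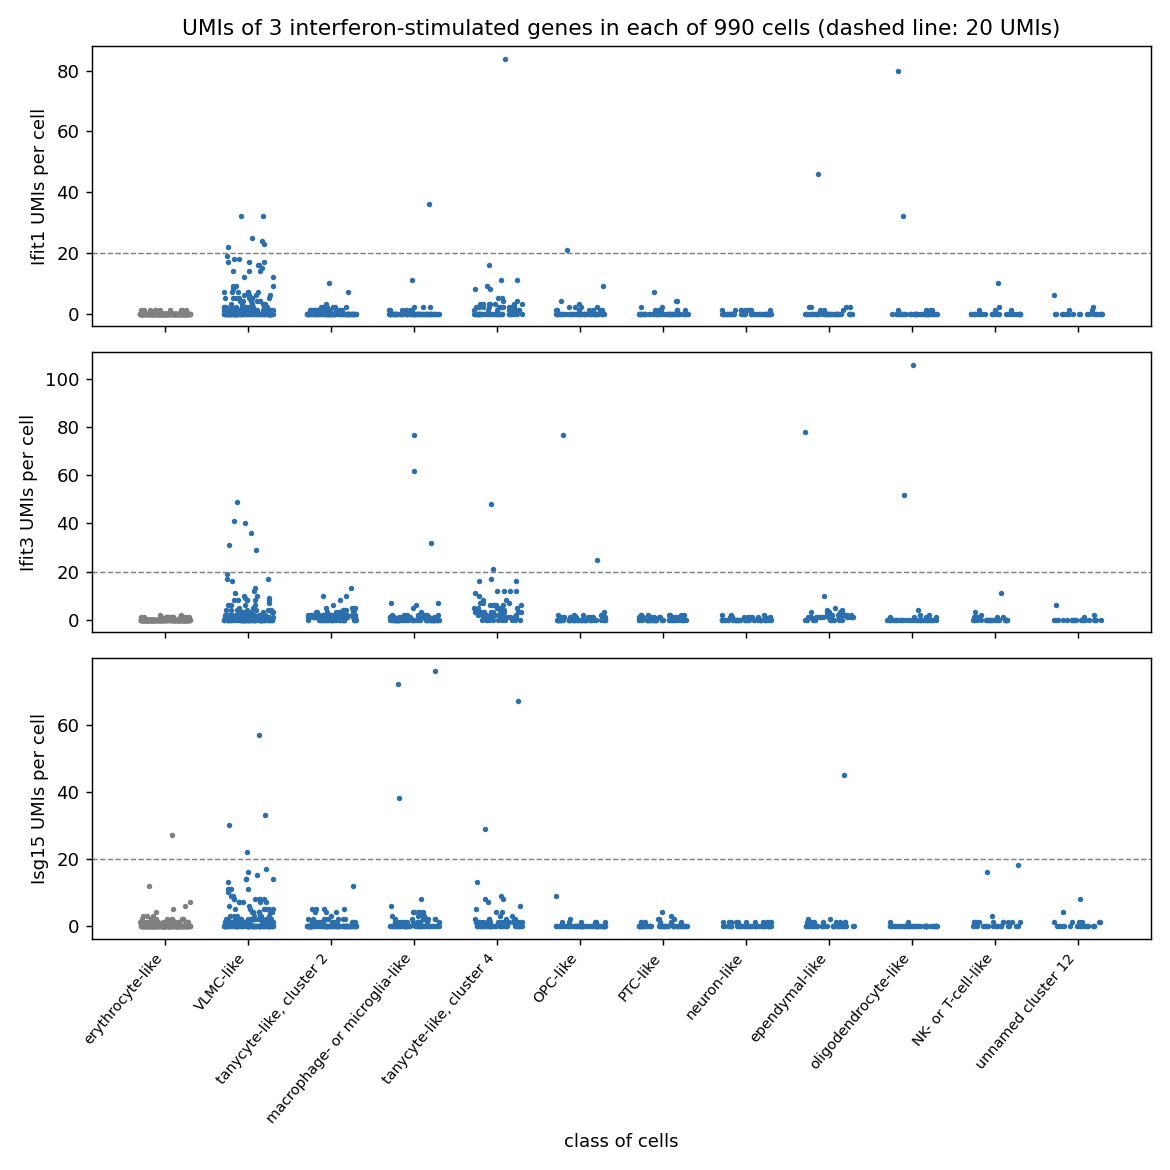
UMIs of Ifit1, Ifit3 and Isg15 (y axes) in each of the 990 cells, by class (x axis), with 1 point per cell and a dashed line at 20 UMIs. Most points lie at 0 to a few UMIs and 24 cells rise above the line for at least 1 gene, 12 of them VLMC-like.

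The class levels of these genes moved accordingly. Without its richest cell, Ifit1 went from 148 to 29.6 CPM in ependymal-like cells, from 169 to 53.6 CPM in oligodendrocyte-like cells and from 88.4 to 36 CPM in macrophage- or microglia-like cells, but only from 495 to 472 CPM in VLMC-like cells. Ifit3 went from 249 to 96.8 CPM in oligodendrocyte-like and from 395 to 199 CPM in ependymal-like cells. Mx1 went from 36.9 to 21.0 CPM and Oasl1 from 41.3 to 22.5 CPM in macrophage- or microglia-like cells.

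The same 24 cells were also rich in the other members, which had no part in choosing them. The other 32 members in the table took 7750 CPM there (7440 to 8060) and 1800 CPM (1770 to 1830) in the other 703 cells of the same 7 classes. Each class with such cells had the higher value in them, from 1400 against 341 CPM in erythrocyte-like cells to 17000 against 2520 CPM in macrophage- or microglia-like cells. At 1000 UMIs per cell, a mean of 6.08 of the other members was detected in the 24 cells and of 1.36 in the rest. Oasl1 was at 148 CPM (109 to 196) against 1.83 CPM (0.944 to 3.19), and 73.4% of its UMIs lay in these cells. Mx1 was at 66.0 against 1.37 CPM, Rsad2 at 657 against 37.3 CPM, Cmpk2 at 185 against 9.75 CPM and Usp18 at 349 against 28.9 CPM. Isg20 was at 72.3 CPM (45.8 to 108) against 57.4 CPM (51.8 to 63.5), with intervals that overlapped, and Ifi27 at 921 against 459 CPM. These values of single genes pool the classes, and both sets of cells differ in their mix of classes. Of the 24 cells 12 were VLMC-like, while 240 of the other 703 were erythrocyte-like and held 301 of their 377 Isg20 UMIs. Single genes were not compared within classes here. None of the 24 cells was called a doublet, but only 3 of the 990 cells were called, at an expected rate of 0.06. The call therefore says little about these 24 cells. Their median of 9249 UMIs was above the 7814 of the other cells of the library. It was also above in each of the 7 classes, with 7618 against 6475 in VLMC-like cells and 24152 against 11757 in tanycyte-like cluster 4. In oligodendrocyte-like cells it was 25163 against 13228. The limit of 20 UMIs was not adjusted for this.

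Receptors of the pathway were found across classes. Ifnar1 was at 112 CPM in NK- or T-cell-like cells and at 46.9 CPM or less elsewhere, and Ifnar2 at 200 CPM in macrophage- or microglia-like cells, 81.4 CPM in VLMC-like cells and 30.8 and 27.5 CPM in tanycyte-like clusters 2 and 4. Ptpn6 was at 198 CPM in macrophage- or microglia-like and 95 CPM in NK- or T-cell-like cells, and at 13 CPM or less elsewhere. Il10rb was at 227 CPM in macrophage- or microglia-like cells, 124 CPM in PTC-like cells and 103 CPM in tanycyte-like cluster 2. Ifnlr1 had 10 UMIs in the library, too few to place.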

How the data were processed

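Members and lists were chosen with earlier results of these data known. The authors deposited raw read counts per Ensembl gene for 7 bulk libraries, and UMI counts per gene and cell from Cell Ranger, whose version is 2.0.1 in the submitters' processing notes. The aligner and counter of the bulk data are not given in the sources used here, and 0 columns were left unused. Libraries were grouped by label. Where nothing else is said, differences are from edgeR 4.0.16 (R 4.3.3, TMM, filterByExpr, quasi-likelihood test, prior count 2 for log2 levels), with Benjamini-Hochberg adjustment over 20466 genes and no covariate. Standard errors (SE) were the absolute log2 fold change divided by the square root of the quasi-likelihood F statistic. They restate that test and are not a separate estimate. CPM used TMM-scaled library sizes, and RPKM divided them by exonic length in GENCODE M21. Each library is labelled as a separate mouse. Cells were clustered with Seurat 5.3.0 (scale factor 10000, 4791 variable genes, 20 components, resolution 0.8), and the 3 doublets Scrublet called (0.303%) were kept. Named were members at an unadjusted p below 0.05, those with groups apart, the 5 of highest RPKM, in cells those with 20 UMIs, and of the pathway the receptors and genes at that limit. An item of the pathway is not reported here. Ifit2, Cmpk2 and other members named with values were added after these were seen. Cells with 20 or more UMIs of Ifit1, Ifit3 or Isg15 were chosen after seeing the data. By counting error alone, a count of 0 in a bulk library allows up to 3 reads, or 0.257 to 0.536 CPM. The level in the tissue may be higher, as amplification can lose a gene. Tyk2, for example, had 0 reads in control 3 and 169 and 130 in controls 1 and 2. Alternatives are listed at the end.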

Additional observations from a re-analysis of the deposited data

How the results depend on the processing

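The median log2 fold change of the members kept its sign under all 16 alternatives, from -1.13 without tumor 1 to -0.37 with genes detected as a covariate, and from -1.13 to -0.628 when libraries were left out in turn. The median of all genes moved from 0.126 to 0.253 with library sizes alone, and to 0.351 with limma-voom, which kept the TMM scaling. Genes with an adjusted p below 0.05 numbered 0 in the main test, 301 with DESeq2, 1 with upper-quartile factors, 3 with library sizes alone, 240 without a filter on low counts, 13 with at least 10 counts in every library, 210 among libraries with over 30000 genes detected, 1 with genes detected as a covariate, and 0 to 45 with a library left out (45 without control 1, 16 without control 3). Members among them numbered 5 with DESeq2 (Zbp1, Ifi44l, Ifitm3, Rtp4 and Ifit1), 4 without the filter, 2 among libraries with over 30000 genes detected, and 0 to 1 with a library left out. Pathway genes numbered 2 with DESeq2, 3 without the filter, 1 among libraries with over 30000 genes detected and 0 with any library left out. Members lower at an unadjusted p below 0.05 numbered 1 with the covariate, against 2.79% of all genes. With a library left out, 11 to 20 (30.6% to 55.6%) were lower, against 2.09% to 7.38% of all genes. Members higher at that limit numbered 1 with limma-voom, against 8.17% of all genes, and 2 with the covariate, against 2.75%. With a library left out they numbered 0 to 2, against 2.27% to 22% of all genes. The causes were not tested. Of single named members, 290 values kept their direction and side of the adjusted limit, 12 passed it newly and 0 reversed. No member passed that limit in the main test, so none could lose it. Changes at the unadjusted limit do not enter this tally. In the cells, VLMC-like cells had the highest sum under all 8 alternatives, and that sum moved to 4570 CPM with the 24 cells of 20 or more UMIs left out. Of all class sums, 76 stayed within their interval and 14 moved.

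Samples of the same replicate number did not deviate together, with correlations of -0.454, -0.00762 and -0.227. These values show no pairing by number, and so few libraries cannot exclude one. With the replicate number as a block, 0 genes and 0 members passed the adjusted limit, 6 members (16.7%) were lower at an unadjusted p below 0.05, against 0.884% of all genes, and the median of the members was -0.944.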

Other observations

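Of the 10 interferon ligands, only Ifng, the gamma interferon of lymphocytes, was seen in the single cells, with 88 UMIs in 14 cells and 442 CPM in NK- or T-cell-like cells. Its receptor chain Ifngr1 stood at 877 CPM in NK- or T-cell-like, 529 CPM in macrophage- or microglia-like and 358 CPM in VLMC-like cells. Of the 11 gamma-response genes with a UMI, 6 were highest in VLMC-like cells, 2 in macrophage- or microglia-like cells and 1 each in NK- or T-cell-like cells, ependymal-like cells and tanycyte-like cluster 4. Those 2 were Ciita, with 7 UMIs in the library and too sparse to place, and Cxcl9, with 25 UMIs in 2 cells. Intervals of the classes were not compared for these 11 genes. The chemokine Cxcl10 stood at 489 CPM and the GTPase Irgm1 at 266 CPM in VLMC-like cells, Igtp at 119 CPM in ependymal-like cells and Gbp4 at 67.1 CPM in NK- or T-cell-like cells. Outside that list, Socs3, a feedback inhibitor of cytokine receptors, was at 3190 CPM and the transcription factor Irf1 at 742 CPM in VLMC-like cells. Cxcl10 had 1062 UMIs in 111 cells. These values come from 1 library and have no replicate check.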
